A study of Homo sapiens with 22 samples.

Results

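Caco-2 cells exposed to faecal water from antibiotic-treated mice (FWatb) were compared with Caco-2 cells exposed to the antibiotics themselves (ATB). The comparison used 11 of the 22 libraries of the series, 7 labelled FWatb (replicates 1, 2, 3, 4, 6, 7 and 8) and 4 labelled ATB (replicates 1 to 4), and the libraries were chosen by these labels alone. Caco-2 is an established human colorectal adenocarcinoma line, and no genetic change to it is given for these samples. In every group, 10% of the culture medium was replaced and RNA was collected after 48 h. The replacement was FWatb, the ATB solution (neomycin at 1 g/L, vancomycin at 0.5 g/L and meropenem at 0.25 g/L), faecal water from the same mice before antibiotics (FWctl) or phosphate-buffered saline (PBS). All groups shared a culture medium that itself contained an antibiotic-antimycotic supplement, and the amount of drug left in FWatb was not given in the sources used here. The study counts the FWatb replicates as biological, but no source used here ties each to its own mouse or says that the ATB replicates were separate cultures, so the p-values measure the spread between these samples, which may be technical.

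Faecal water is the soluble fraction of homogenised faeces. It carries bacterial and host metabolites, bile acids, undigested dietary compounds and, in treated animals, possibly the drugs. Neomycin is an aminoglycoside that binds the bacterial ribosome and can also affect mitochondrial translation and lysosomes of mammalian cells, while vancomycin and meropenem block the building of the bacterial cell wall. Caco-2 cells express an enterocyte programme together with several genes typical of fetal gut and liver, and both depend on how far the cells have differentiated.

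Total counts ranged from 9085215 to 12194668 in FWatb and from 7118302 to 18726967 in ATB. The libraries also fell into groups by the share of counts on ribosomal DNA transcripts of chromosome 21 (rDNA). All 7 FWatb libraries and ATB 2 were high in rDNA, at 2.08% to 5.45% and 8.19%. ATB 1, ATB 3 and ATB 4 were low, at 0.0244% to 0.0344%, and were also the deepest of the 11. The library set is therefore partly confounded with the comparison. For many lists, counts of called members are also given below with the set as a term in the model or in the high-rDNA libraries alone. In the PBS and FWctl libraries, which hold both sets, the set itself changed 10 genes (0.0491% of the 20373 tested, edgeR, adjusted p under 0.05). An unadjusted p under 0.05 was found for 884 genes (4.34%), near the share that this threshold gives by chance. These 10 were SNORA12, a small nucleolar RNA, 6 ribosomal DNA transcripts (RNA5-8SN1, RNA5-8SN3 and 4 without a symbol) and the mitochondrial MT-ATP6, MT-ND3 and MT-ND4. All 8 epithelial markers passed the filter, and their summed counts overlapped, at 39140 to 50620 in FWatb and 41820 to 43800 in ATB. Of the 8, 3 were higher (KRT18, KRT8 and KRT19) and 1, the E-cadherin gene CDH1, was lower, at -0.26 (adjusted p = 0.0148). With the library set as a term, 3 were higher and 0 lower.

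FWatb and ATB differed widely, with small changes for most genes. In total, 2958 genes (14.5% of those tested) passed the test between FWatb and ATB, 1560 higher (7.66%) and 1398 lower (6.86%) under FWatb. Scaled by library size alone instead of TMM, the split was 2662 higher and 724 lower (78.6% higher, against 52.7%). The median absolute log2 fold change of the called genes was 0.40, with a median standard error (SE) of 0.09, and 216 of them changed by more than 1 on the log2 scale, 91 upwards and 125 downwards. Counts of the groups did not overlap, with FWatb above, for 4.09% of all genes and, with FWatb below, for 4.53%. These are bulk libraries, in which fewer cells of a type and less RNA per cell cannot be told apart.

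Many calls depended on how the library set was treated. With the set as a term, 1269 genes were higher (6.23%) and 908 lower (4.46%), and 1868 of the 2958 (63.2%) passed again in the same direction, while all 2958 kept their sign. In the high-rDNA libraries alone, where ATB 2 is the single ATB library, 1022 genes were called, and 698 of the 2958 (23.6%) were among them in the same direction. Counts of list members called in that fit are given below for some lists only. Among lists without such a count, the AP-1, cholesterol, lysosome, ABC pump, tight junction and ATF4 lists also lost calls there. So few of all genes passed there that a low count says little about a list. Only SNORA12 and RNA5-8SN1 were called between FWatb and ATB and also, in the same direction, between the sets in PBS and FWctl. SNORA12 was lower under FWatb by a log2 fold change of -0.82 (adjusted p = 0.00236), which became -0.11 (adjusted p = 0.772) with the set as a term. RNA5-8SN1 was higher by 3.50 (adjusted p = 0.0364) and by 0.63 (adjusted p = 0.855) with the term. In the high-rDNA libraries alone, the log2 fold changes of several genes named below were smaller by more than 1.5 times and lost their call. Among the rises these were CEACAM1 at 0.58 (adjusted p = 0.26), BOP1 at 0.47 (adjusted p = 0.242), SLC7A5 at 0.64, SLC7A11 at 0.61, SPRY4 at 0.14, GCLM at 0.18, AHR at 0.18 and ABCC1 at 0.09. Among the falls they were ALB at -0.74, AFP at -0.57, TTR at -0.39, SPINK1 at -0.43, ERP27 at -0.73 and CTSL at -0.07.

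**Figure D1:**
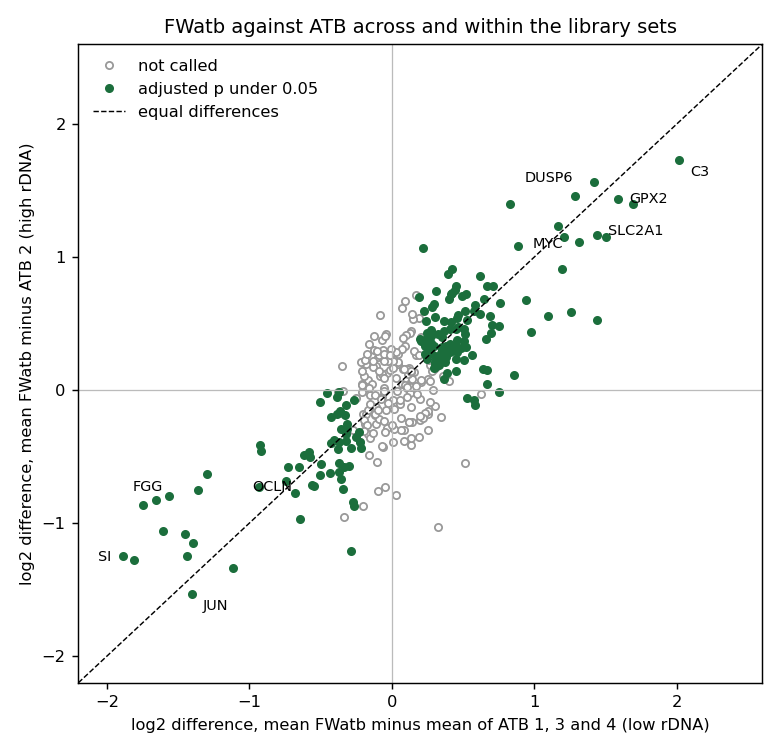
Each point is one gene of the gene lists or of the named genes with a mean normalised count of at least 100, placed by its mean log2 difference of FWatb from ATB 1, 3 and 4 (horizontal axis, low rDNA) and from ATB 2 (vertical axis, high rDNA). Filled points passed the test and the dashed line marks equal differences; both axes share the FWatb mean, and C3, MYC and JUN lie far from 0 on both.

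Values below are normalised counts (counts per library scaled by the trimmed mean of M-values, TMM, to the mean library size), and fold changes and adjusted p are from edgeR's quasi-likelihood test over all 20373 genes. Among the largest rises under FWatb were C3, CEACAM6, GPX2 and ID1. The genes with the largest changes each way were chosen among called genes whose groups did not overlap. They include C3, GPX2, MYC, DUSP6, JUN, SI and BCAS1. For these genes, here and below, the lack of overlap follows from that choice and is not a separate result. C3, which encodes the central complement component (ENSG00000125730, GRCh38 chr19:6677704-6730562), read 561 to 1470 in FWatb (median 935) and 252, 309, 254 and 255 in ATB 1 to 4. Every FWatb library lay above every ATB library, and the lowest was FWatb 6. The log2 fold change was 2.04 (SE 0.16, adjusted p = 5.27e-12), or 4.10-fold, and 2.07 with the library set as a term. CEACAM6 and CEACAM1, which encode adhesion proteins of the epithelial surface, rose by 1.70 (SE 0.20, adjusted p = 6.24e-08) and 1.28 (SE 0.19, adjusted p = 3.53e-06), though CEACAM1 differed by 1.44 from the low-rDNA ATB libraries and by 0.52 from ATB 2. CEACAM6 ranged from 177 to 391 in FWatb and from 74.7 to 96.9 in ATB. NOX1, the superoxide-producing oxidase of colon epithelium, rose by 1.20 (SE 0.17), and GPX2, the gastrointestinal glutathione peroxidase, by 1.57 (SE 0.15, adjusted p = 7.22e-10). GPX2 read 296 to 567 in FWatb (median 479) and 131, 165, 132 and 188 in ATB 1 to 4, with no overlap.

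The transcription regulator genes MYC and ID1 rose as well. MYC, a driver of ribosome production and cell growth, read 984 to 1667 in FWatb (median 1460) and 614, 645, 500 and 570 in ATB 1 to 4. Its lowest FWatb value, again in FWatb 6, was above all 4 ATB values. The log2 fold change of MYC was 1.28 (SE 0.09, adjusted p = 8.48e-13), or 2.43-fold, and 1.29 with the library set as a term. ID1, an inhibitor of differentiation factors, rose by 1.45 (SE 0.14) from 115 to 175 in ATB to 264 to 528 in FWatb. The deubiquitinase gene UCHL1 rose by 1.22 (SE 0.10), the actin-like gene ACTL8 by 1.34 (SE 0.11) and CLDN2, which encodes a pore-forming claudin of leaky epithelia, by 1.17 (SE 0.17).

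**Figure D2:**
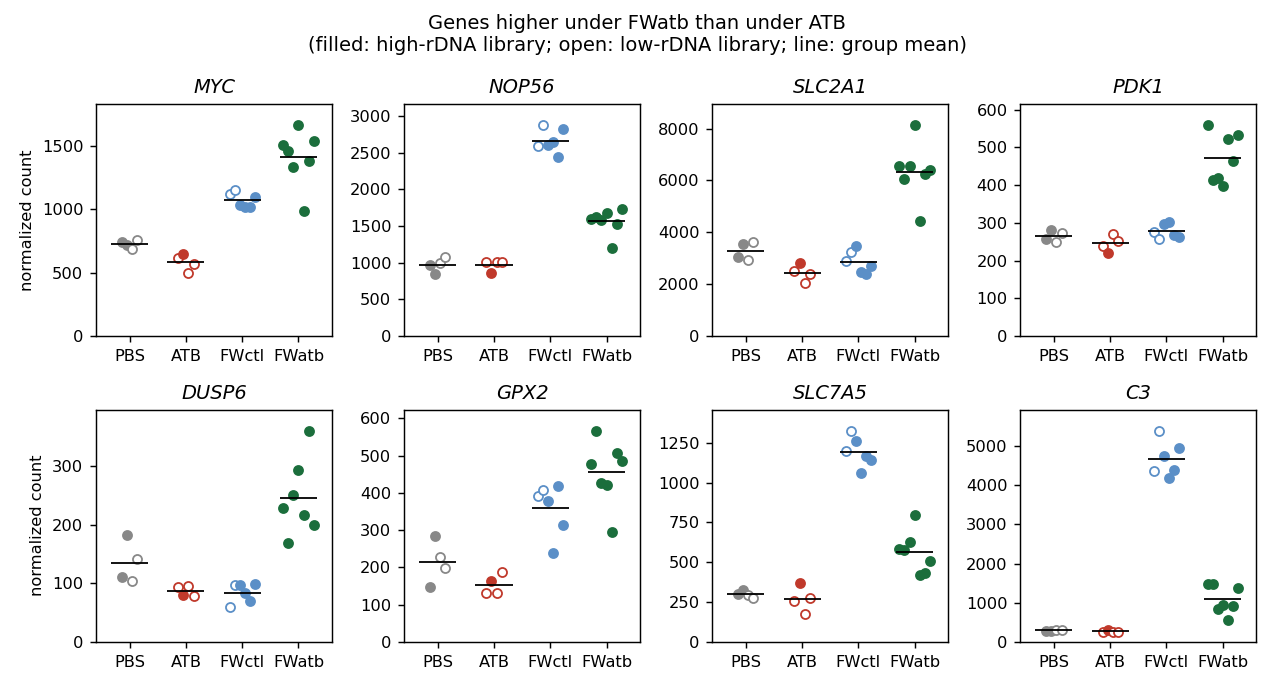
Normalised counts (vertical axes, from 0) of 8 genes higher under FWatb than ATB in each library of the 4 groups, with FWctl replicate 1 left out. Filled points are high-rDNA libraries, open points low-rDNA libraries, and lines group means. In each panel all 7 FWatb points lie above all 4 ATB points, ATB 2 included. For genes chosen as the largest changes, this separation was a condition of the choice.

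Genes of ribosome production rose together. Of 15 measured members of the ribosome biogenesis list, 12 were higher, 0 lower and 3 not called, with a median log2 fold change of 0.50 beside 0.002 over all genes. The count was 12 with the library set as a term and 9 in the fit of high-rDNA libraries alone. POLR1B, a subunit of RNA polymerase I, read 592 to 743 in FWatb (median 683) and 410, 452, 403 and 423 in ATB 1 to 4, a log2 fold change of 0.66 (SE 0.08, adjusted p = 4.55e-08). NOP56, a core protein of box C/D small nucleolar particles, read 1197 to 1725 in FWatb (median 1596) and 1005, 857, 1008 and 1014 in ATB. Neither gene overlapped between the groups, and FWatb 6 was the lowest FWatb library for both. NOP56 rose by 0.68 (SE 0.08, adjusted p = 9.69e-08), BOP1, a factor of large-subunit assembly, by 0.88 (SE 0.12), and DKC1, the pseudouridine synthase, by 0.60 (SE 0.08). The nucleolar protein NCL rose by 0.53 (SE 0.09), with overlapping counts (2023 to 2975 in FWatb and 1411 to 2126 in ATB). In contrast, 0 of 18 cytosolic ribosomal protein genes passed the test, with a median of -0.02. Of 15 mitochondrial ribosomal protein genes, 6 were higher and 0 lower (median 0.26), 9 with the library set as a term, with the highest at 0.53 for MRPL3 (SE 0.08, adjusted p = 5.59e-06).

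Of 16 genes of serine and one-carbon metabolism and tRNA charging, 12 were higher and 0 lower (median 0.38), and 11 with the library set as a term. The serine aminotransferase gene PSAT1 rose by 0.63 (SE 0.10), the mitochondrial serine hydroxymethyltransferase gene SHMT2 by 0.48 (SE 0.08), and the isoleucyl- and tyrosyl-tRNA synthetase genes IARS1 and YARS1 by 0.54 (SE 0.07) and 0.70 (SE 0.10). Among 10 amino acid transporters, 4 were higher and 0 lower, with a median of 0.12, and 2 were higher without ATB 3 or with the library set as a term. SLC7A5, the large neutral amino acid exchanger, read 423 to 796 in FWatb (median 579) and 257, 368, 174 and 274 in ATB. All FWatb values lay above the ATB values, and ATB 2 was the nearest. The change was 1.12 (SE 0.13, adjusted p = 7.18e-08). In the high-rDNA libraries alone, 4 of the 16 and 0 of the 10 passed. The ATF4 stress-response list held 2 higher and 3 lower genes among 12, with ATF4 itself at -0.02 (adjusted p = 0.91). Its member ASNS differed by 1.30 from the low-rDNA ATB libraries and by 0.89 from ATB 2, on the log2 scale. ATF3, which was lower, differed by -0.74 and -0.54. The activity of the ATF4 protein was not tested.

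Of 14 measured hypoxia and glycolysis genes, 10 were higher and 0 lower, with a median of 0.52, and the count was 10 with the library set as a term and 6 in the high-rDNA libraries alone. SLC2A1, the basal glucose transporter, read 4416 to 8145 in FWatb (median 6392) and 2490, 2797, 2061 and 2398 in ATB 1 to 4. The groups were far apart, FWatb 6 being lowest. Its log2 fold change was 1.38 (SE 0.11, adjusted p = 1.30e-11), or 2.61-fold. PDK1, a kinase that inhibits pyruvate dehydrogenase, read 399 to 560 in FWatb (median 463) and 238, 221, 270 and 253 in ATB. It rose by 0.94 (SE 0.09, adjusted p = 8.87e-10). Hexokinase 2 (HK2) rose by 0.91 (SE 0.13), lactate dehydrogenase A (LDHA) by 0.48 (SE 0.08) and ANKRD37, a known hypoxia target, by 1.72 (SE 0.28) at low counts of 22.1 to 94.5 against at most 20.6. The glucose transporter SLC2A3 rose by 0.73 (SE 0.14) and the fructose transporter SLC2A5 by 0.96 (SE 0.19). Not called in this list were ADM (-0.06), ENO2 (0.02), ALDOC (0.12) and EGLN3 (0.70).

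Of 8 NRF2 targets, which answer oxidative and electrophilic stress, 7 were higher and 0 lower (median 0.48), 7 with the library set as a term, 2 in the high-rDNA libraries alone and 3 in a fit of all 22 libraries. SLC7A11, the cystine importer, rose by 1.01 (SE 0.14, adjusted p = 1.94e-06), NQO1, a quinone reductase, by 0.55 (SE 0.09, adjusted p = 1.02e-05), and GCLM, a subunit of glutathione synthesis, by 0.57 (SE 0.12, adjusted p = 0.000711). GCLM overlapped between ATB 2, at 134, and the lowest FWatb library, at 128. The receptor gene AHR rose by 0.52 (SE 0.10), and by 0.29 (adjusted p = 0.0422) with the library set as a term. ATB 2, at 1252, stood above the other ATB libraries, at 871 to 914, and below all FWatb libraries, at 1296 to 1561. Of 5 measured AHR targets, 2 were higher and 0 lower (median 0.55), and 2 were higher with the library set as a term. The list includes NQO1, at 0.55, and ALDH3A1, at 0.79, or 0.50 in the high-rDNA libraries alone. CYP1A1, a classical AHR target, did not pass between FWatb and ATB (2183 to 3208 against 1743 to 2415, log2 fold change 0.25, adjusted p = 0.177). It was higher than PBS in both, by 1.55 under FWatb and 1.30 under ATB.

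Feedback genes of the EGFR and MAPK pathway are switched on by growth factor signalling and then limit it. Of 11 measured ligands and feedback inhibitors, 7 were higher and 0 lower (median 0.44), 4 with the library set as a term and 1 in the high-rDNA libraries alone. DUSP6, the ERK phosphatase, read 170 to 361 in FWatb (median 229) and 94.0, 80.4, 95.3 and 79.1 in ATB 1 to 4, with a log2 fold change of 1.48 (SE 0.16, adjusted p = 1.10e-08). No ATB value reached the lowest FWatb value, as the choice of this gene required. SPRED1 rose by 0.66 (SE 0.10), SPRY4 by 0.70 (SE 0.14) and SPRY2 by 0.50 (SE 0.11). SPRY4 in ATB 2 (197) fell within the FWatb range (189 to 267).

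Of 13 AP-1 and immediate early genes, 6 were lower, 1, MYC, was higher and 6 were not called, with a median of -0.41. The 6 were EGR1, JUN, DUSP1, FOS, ATF3 and FOSB, and 5 passed with the library set as a term. FOSB, at 3.05 to 11.5 in FWatb and 7.95 to 26.6 in ATB, was the one lost, and it also lost its call without ATB 4 (-0.97, adjusted p = 0.172). EGR1, a zinc-finger factor induced within minutes of stimulation, read 20.8 to 52.2 in FWatb (median 32.0) and 165, 148, 172 and 149 in ATB 1 to 4. The groups were far apart, and ATB 2 lay close to the low-rDNA ATB libraries. The log2 fold change was -2.23 (SE 0.15, adjusted p = 1.59e-13), or 4.68-fold lower. JUN, a component of the AP-1 factor, read 53.9 to 90.6 in FWatb (median 70.1) and 205, 199, 162 and 181 in ATB, a change of -1.42 (SE 0.16, adjusted p = 3.53e-08). FOS, its partner, was lower by -0.72 (SE 0.14), DUSP1, a phosphatase of stress kinases, by -0.71 (SE 0.13), and ATF3 by -0.71 (SE 0.15).

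The PBS libraries give a reference for EGR1, JUN and FOS. EGR1 read 20.4 to 32.0 and JUN 55.7 to 92.3 in the 4 PBS libraries. Against PBS, EGR1 was 2.62 higher under ATB (adjusted p = 2.52e-13) and 0.40 higher under FWatb (adjusted p = 0.213) on the log2 scale. JUN was 1.40 higher under ATB (adjusted p = 9.92e-06) and -0.02 apart under FWatb (adjusted p = 0.973). FOS was higher than PBS in both, by 1.26 under ATB and 0.54 under FWatb. These contrasts share the PBS, FWatb and ATB libraries with each other and with the main comparison, so they are the same measurements seen from another side. Across all genes, ATB differed from PBS for 52 higher (0.255%) and 6 lower (0.0295%) genes, and FWatb from PBS for 1231 higher (6.04%) and 804 lower (3.95%). MYC, by comparison, was 0.96 above PBS under FWatb (adjusted p = 2.51e-09) and -0.32 from PBS under ATB (adjusted p = 0.191). SLC2A1 was 0.95 above PBS under FWatb and -0.44 from PBS under ATB (adjusted p = 0.111).

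The EGR1 promoter carries paired copies of the CArG box, the site of serum response factor, and is shown because EGR1 had the largest fold change of these genes. The 150 bases before the RefSeq start (GRCh38.p14, chr5:138465329-138465478, plus strand) follow, with both CArG boxes in capitals, the first bases of which lie at -105 and -83 from the start.
EGR1: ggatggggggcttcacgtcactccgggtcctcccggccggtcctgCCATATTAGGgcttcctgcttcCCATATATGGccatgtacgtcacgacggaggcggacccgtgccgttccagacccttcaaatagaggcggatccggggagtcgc
A search of both strands found the CArG box in 1.29% of 27305 RefSeq promoter windows (250 bases before to 50 after the start) and, among 10 members of the list with a window, in EGR1 alone. The E-box CACGTG, which MYC can bind, was present in 4 of 13 ribosome biogenesis windows (30.8%) and in 7.43% of all windows. The 4 were PES1 and RRP9, which rose, and FBL and NOP2, which were not called, while POLR1B, NOP56, DKC1 and NCL had none. The letters ACGTG, the core of the hypoxia element and a part of the E-box, were present in 7 of 12 hypoxia and glycolysis windows (58.3%) and in 21.6% of all windows. These included the uncalled ENO2 and ALDOC and did not include SLC2A1 or PDK1. A match describes letters in a window and not binding.

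Fetal and hepatic-type secreted protein genes were lower under FWatb. Of 11 measured members, 9 were lower and 0 higher, with a median of -0.86. The count was 8 with the library set as a term and 3 in the high-rDNA libraries alone. The fibrinogen chain genes FGA, FGB and FGG lie next to each other on chromosome 4 (FGB at chr4:154563011-154572807 and FGA at chr4:154583126-154590742, GRCh38). FGG read 1122 to 2437 in FWatb (median 1301) and 4185, 2633, 5221 and 5165 in ATB 1 to 4, and FGA 433 to 960 (median 565) and 1637, 1208, 1786 and 1885. In both genes the highest FWatb library was FWatb 6 and the lowest ATB library was ATB 2, so the nearest pair came close without overlapping. The log2 fold changes were -1.53 for FGG (SE 0.14), -1.44 for FGA (SE 0.14) and -1.42 for FGB (SE 0.14), with adjusted p of 5.64e-10, 5.64e-10 and 2.87e-09.

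ALB, the serum albumin gene, and AFP, its fetal counterpart, are neighbours at chr4:73397114-73421482 and chr4:73431138-73456174. ALB read 251 to 594 in FWatb (median 297) and 825, 600, 1106 and 1325 in ATB. The gap was small, 594 in FWatb 6 against 600 in ATB 2. ALB was lower by -1.46 (SE 0.17) and by -1.07 with the library set as a term (adjusted p = 0.000531), AFP by -1.13 (SE 0.15) and the transthyretin gene TTR by -0.82 (SE 0.10). With ATB 2 nearest to FWatb in each of these genes, the changes with the set as a term were smaller. Against PBS, FGA was 0.78 higher under ATB (adjusted p = 0.0173) and -0.66 under FWatb (adjusted p = 0.00121), and ALB 0.41 higher under ATB (adjusted p = 0.559) and -1.05 under FWatb (adjusted p = 6.78e-05).

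Enterocyte genes did not move as a group. Among 13 brush border and differentiation genes, 3 were lower and 1 was higher, with a median of 0.03, and 2 were lower and 0 higher with the library set as a term. SI, the brush border sucrase-isomaltase, read 170 to 379 in FWatb (median 232) and 797, 559, 868 and 961 in ATB 1 to 4, among the largest falls of the comparison. All FWatb libraries lay below ATB 2, the lowest ATB library. The log2 fold change was -1.72 (SE 0.15, adjusted p = 2.98e-11), or 3.30-fold lower. SI was 0.76 higher than PBS under ATB (adjusted p = 0.0219) and -0.96 under FWatb. HEPACAM2, a membrane protein found in secretory cells of the gut, fell by 1.68 (SE 0.13), SLC26A3, the chloride and bicarbonate exchanger, by 1.40 (SE 0.13), and SPINK1, a trypsin inhibitor, by 0.82 (SE 0.09). The differentiation regulators CDX2 (0.22, adjusted p = 0.0547) and HNF4A (0.17, adjusted p = 0.139) did not pass the test, although CDX2 passed without FWatb 6 and without ATB 2. Further large falls were those of BCAS1 at -1.37, TM4SF20 at -1.33, ERP27 at -1.28 and FAXDC2 at -1.15 (SE 0.12 to 0.14). Each was without overlap, as the choice of these genes required. Keratin genes of simple epithelium rose, KRT18 by 0.75 (SE 0.10) and KRT8 by 0.64 (SE 0.11), although FWatb 6 (6174) lay below ATB 2 (6980) for KRT8.

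Tight junction and iron genes held changes in both directions. OCLN, which encodes occludin, read 2014 to 2244 in FWatb (median 2124) and 2983, 3523, 3170 and 3216 in ATB, a change of -0.59 (SE 0.07, adjusted p = 2.76e-08). ATB 2 was the farthest from FWatb. MARVELD2, the tricellulin gene, fell by 0.51 (SE 0.06) and CLDN1 by 0.32 (SE 0.07), so that with CLDN2 4 of 11 junction genes were called. SLC40A1, the iron exporter ferroportin, read 1468 to 1829 in FWatb (median 1629) and 2447, 2439, 2855 and 2826 in ATB, a change of -0.69 (SE 0.07, adjusted p = 8.46e-09). The duodenal ferric reductase gene CYBRD1 fell by 0.59 (SE 0.06), while the importer gene SLC11A2 and the transferrin receptor gene TFRC rose by 0.37 (SE 0.08) and 0.32 (SE 0.08). The iron list had 3 higher and 2 lower of 7 members, the same counts as with the library set as a term, but 1 was higher in the high-rDNA libraries alone and 0 in the fit of all 22 libraries.

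Of 16 cholesterol genes 8 were lower and 0 higher (median -0.21), but 3 with the library set as a term, and 4 without ATB 3 or without ATB 4. HMGCS1, the synthase that commits carbon to sterols, read 3800 to 4329 in FWatb (median 4157) and 5597, 5804, 6539 and 6186 in ATB, a change of -0.56 (SE 0.07, adjusted p = 3.07e-07). INSIG1, a sterol sensor, fell by 0.63 (SE 0.09), and the desaturase genes SCD and FADS1 by 0.54 (SE 0.09) and 0.40 (SE 0.07). Their groups did not overlap. Of 9 fatty acid genes 4 were lower and 0 higher, 3 with the set as a term and 2 in the high-rDNA libraries alone, and the list's median was -0.04. Of 15 lysosome and autophagy genes 7 were lower and 0 higher (median -0.30), 4 with the set as a term. MAP1LC3B, the autophagosome protein, read 140 to 175 in FWatb (median 150) and 228, 302, 266 and 232 in ATB, a change of -0.72 (SE 0.10, adjusted p = 1.50e-06). It was 0.59 above PBS under ATB (adjusted p = 0.0106) and -0.12 under FWatb (adjusted p = 0.535). The lysosomal membrane gene LAMP2 fell by 0.38 (SE 0.06) and the cathepsin gene CTSB by 0.34 (SE 0.07). The cathepsin gene CTSL, at 408 in ATB 2 against 513 to 578 in the low-rDNA ATB libraries, lost its call with the set as a term (-0.25, adjusted p = 0.0659).

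Some transcripts of the mitochondrial genome were lower under FWatb. Of 13, 5 were lower and 0 higher (median -0.38), 10 with the library set as a term and 9 in the high-rDNA libraries alone. The count was 3 without FWatb 7 or ATB 2 and 2 without ATB 3. MT-CO1, a subunit of the terminal oxidase, ranged from 28380 to 32760 in FWatb and from 35240 to 43760 in ATB, a change of -0.42 (SE 0.09, adjusted p = 0.00121). MT-ND4, a subunit of the first respiratory complex, changed by -0.55 (adjusted p = 0.0258) and by -0.997 with the set as a term (adjusted p = 2.45e-05). Its counts overlapped, at 1389 to 2583 in FWatb and 1951, 4104, 2852 and 1813 in ATB 1 to 4. On the log2 scale it differed by -0.29 from the low-rDNA ATB libraries and by -1.21 from ATB 2, so the fall rested largely on ATB 2. In PBS and FWctl, MT-ND4 was 0.57 higher in the high-rDNA libraries, the opposite direction. Mitochondrial transcripts, ribosomal RNA included, took 26.0% to 29.1% of counts in FWatb and 29.2% to 35.5% in ATB. Of 16 nuclear-encoded respiratory chain genes 3 were higher and 0 lower.

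Of 14 DNA replication genes 8 were higher and 0 lower (median 0.29), of 11 histone genes 7 and 0 (median 0.33) and of 12 mitosis genes 5 and 0 (median 0.19). In the high-rDNA libraries alone 3, 1 and 2 of them passed, and the mitosis count was 3 without FWatb 8 or ATB 3 and 2 without ATB 1. The helicase subunit gene MCM7 rose by 0.37 (SE 0.08), the replication factor gene CDC45 by 0.49 (SE 0.10), the anaphase activator gene CDC20 by 0.46 (SE 0.09) and the linker histone gene H1-4 by 0.60 (SE 0.09). MKI67, a proliferation marker, did not pass (adjusted p = 0.992). CDKN1A, an inhibitor of cyclin-dependent kinases, fell by 0.47 (SE 0.10).

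Among inflammatory genes, 6 of 13 NF-kB targets were higher and 0 lower, and 3 were higher without ATB 1 or in the fit of all 22 libraries. The chemokine genes CCL20 and CXCL1 rose by 1.63 (SE 0.25) and 1.57 (SE 0.26) at low counts, CCL20 from 10.6 to 18.2 in ATB to 21.3 to 72.1 in FWatb. NFKBIA, the pathway's inhibitor, rose by 0.39 (SE 0.11) and lost its call with the library set as a term (adjusted p = 0.0648). Of 9 interferon-stimulated genes, 4 were lower and 0 higher, IFIT1 by -1.34 (SE 0.19) from 43.9 to 53.8 in ATB to 10.4 to 27.4 in FWatb, and IFIT3 by -0.88 (SE 0.14). In the high-rDNA libraries alone 1 NF-kB gene and 0 interferon genes passed, and the interferon count was 2 without FWatb 1, ATB 1 or ATB 3. Markers of other cell types were low. Of 6 immune markers, 3 were measurable and 1 had no read in any of the 11 libraries. Together the 3 summed to 103 to 165 in FWatb and 93.2 to 120.0 in ATB. One of them, LYZ, also a product of gut epithelium, was higher by 0.35 (adjusted p = 0.0481). With the library set as a term, 0 immune markers passed. The summed counts of fibroblast and endothelial markers were 262 to 322 in FWatb and 366 to 457 in ATB, with 1 of 6 measured members called, PDGFRB at -0.90 (adjusted p = 7.05e-07). The part of these markers in the results above was not tested.

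The study was built around the efflux pump ABCB1, which exports many drugs from enterocytes (GRCh38 chr7:87503017-87713323). ABCB1 read 1791 to 2229 in FWatb (median 1833) and 1537, 1378, 1341 and 1410 in ATB 1 to 4. All FWatb libraries were above all ATB libraries. The log2 fold change was 0.42 (SE 0.09, adjusted p = 0.000561), or 1.34-fold, 0.47 with the library set as a term (adjusted p = 0.00239) and 0.48 in the high-rDNA libraries alone (adjusted p = 0.0662), where it was not called. A two-sided exact permutation test of the single gene gave p = 0.00606, the smallest its 330 arrangements allow. Against PBS, ABCB1 was 0.67 higher under FWatb (adjusted p = 1.40e-06) and 0.25 higher under ATB (adjusted p = 0.395). The pump genes ABCG2 and ABCC1 rose by 0.44 (SE 0.08) and 0.56 (SE 0.13), and ABCC3 fell by 0.36 (SE 0.08), so that 4 of 7 ABC pump genes were called. Of the regulators that the study named, JUN and FOS were lower, as above. NR1I3, the receptor CAR, read 32.7 to 62.7 in FWatb (median 48.5) and 44.4, 43.9, 50.7 and 36.3 in ATB, overlapping fully, with a log2 fold change of 0.12 (SE 0.17, adjusted p = 0.739). VDR (0.12), AKT1 (0.15), JUNB (-0.00) and JUND (-0.04) did not pass either, at adjusted p of 0.332 to 0.985. The NR1I3 counts are low. The study proposes CAR from other evidence, including FWctl paired with FWatb and correlation with ABCB1 in cells and mouse intestine. It also reports higher expression of the mouse gene in median and distal small intestine under antibiotics, and in germ-free than in conventionalized mice. Higher CAR expression in small intestine than in colon is a further argument of the study. FWatb against ATB does not test that proposal.

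The FWatb libraries differed among themselves. A principal component analysis of the 11 libraries used the 500 genes of highest variance. On its leading component, with 57.8% of the variance, FWatb 6 lay at 0.23, the other 6 FWatb libraries at 3.37 to 5.56 and the ATB libraries at -7.78 to -5.75. FWatb 6 was the FWatb library nearest to ATB for 66.0% of the 1560 higher genes, against 3.9% to 8.2% for each other FWatb library, and for 31.3% of the 1398 lower genes, against 6.3% to 19.2%. Its total (10596342) and rDNA share (2.85%) lay inside the FWatb range. Without FWatb 6 the number of called genes was 3419. FWatb 4 and FWatb 8 were most often the farthest from ATB among the higher genes, at 30.0% and 26.9%.

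**Figure D3:**
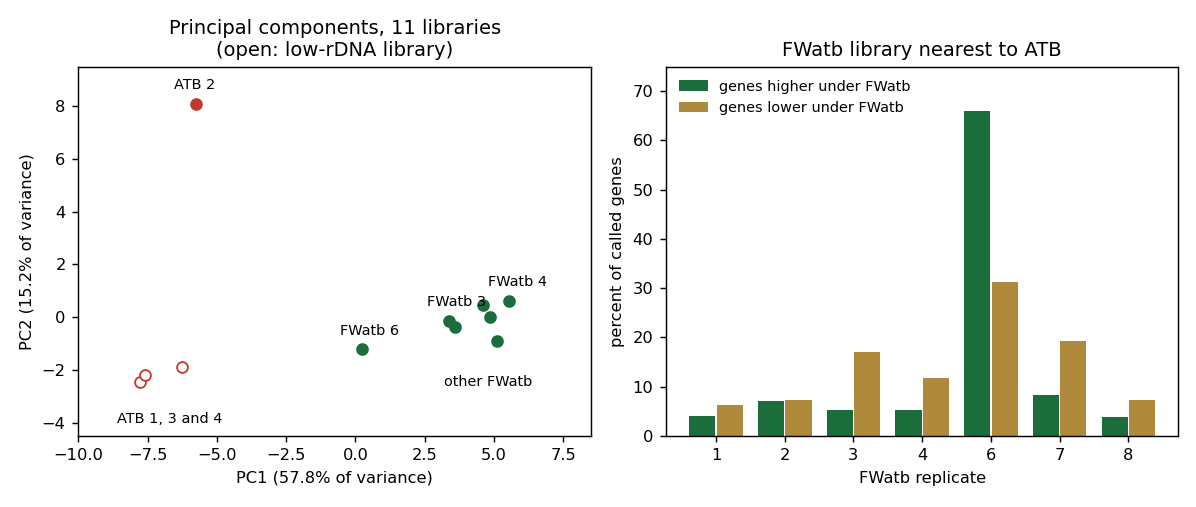
Left, first (horizontal, 57.8% of variance) and second (vertical, 15.2%) principal components of the 11 libraries, open points being low-rDNA libraries. Right, percent of the genes called higher or lower (vertical axis, from 0) for which each FWatb replicate (horizontal axis) was the nearest to ATB; replicate 6 leads with 66.0% and 31.3%.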

How the data were processed

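RNA from Caco-2 cells was sequenced after 48 h of exposure. The authors deposited raw gene counts made, per the labels and the study's methods, with Trimmomatic 0.38, HISAT2 2.1.0 and featureCounts (Subread 2.0.0) on GRCh38. The kit keeps strand, but the strand setting of the counting was not given in the sources used here, so overlapping and antisense genes are uncertain. The deposited counts were tested with edgeR 4.0.16 in R 4.3.3 (TMM, quasi-likelihood, Benjamini-Hochberg, adjusted p under 0.05) in 1 model of all 4 groups without FWctl 1, an outlier in the study. Genes needed more than 5 counts in at least 3 samples. Total counts were 7118302 to 18726967, and counting error is larger at low counts. High-rDNA libraries had over 0.5% of counts on chromosome 21 rDNA genes. Symbols and coordinates came from GENCODE 44, and promoters from RefSeq (GRCh38.p14). Single genes the study named were also tested by exact permutation. DESeq2 1.42.0, other filters and scalings, the library set, a replicate block and leaving out each replicate were alternatives. Scripts were tested on simulated data. Gene lists and members were chosen with earlier results of these data known. The named genes included the 12 largest changes each way among called, non-overlapping genes with a mean of at least 100. They also had to pass in the same direction with the library set as a term, without following the set in PBS and FWctl. The others were genes following the set (none met the limits), up to 4 per list and the factors the study named. Some results of these lists are not reported here.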

Additional observations from a re-analysis of the deposited data

Results flagged for a closer look

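Among 234 groups of 4 or 7 values examined, 24 held a sample far from the others of its group by Dixon's criterion, which chance alone meets in about 1 of 20 groups. FWatb 6 gave 8 of the 24. It was lowest for ACTL8 (654.5), NOP56 (1197), NCL (2023), H1-4 (4393), KRT18 (3652) and KRT8 (6174), highest for FAXDC2 (166.7), and apart from the other FWatb libraries on the first principal component (0.23). ATB 2, the high-rDNA ATB library, gave 7. Its total was 7118302 and its rDNA share 8.19%, and its normalised counts stood apart for C3 (309), NOP56 (857) and BOP1 (170), for which the nearest other ATB libraries read 255, 1005 and 121, and for AHR (1252) and CDX2 (1088). The remaining flags were IARS1 in FWatb 8 (3045), CYP1A1 in FWatb 4 (3208), IFIT3 in FWatb 4 (68.8), LAMP2 in FWatb 7 (3097) and ATB 1 (3551), DUSP1 in ATB 1 (196), JUND in ATB 3 (239), and EGLN3 in FWatb 7 (28.1) and ATB 4 (9.08).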

How the results depend on the processing

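Against 2958 called genes, the library set as a term gave 2177, of which 908 were lower, and the high-rDNA libraries alone, with ATB 2 as the single ATB library assumed to vary like the other groups, gave 1022 (585 higher, 437 lower). Library size alone gave 2662 higher and 724 lower, with the median of all genes at 0.094. A log2 fold change above 1 left 216 (91 higher, 125 lower). Leaving out 1 replicate at a time gave 2069 to 3419 called, 1061 to 1851 higher and 975 to 1568 lower. Correlations between FWatb and ATB libraries of the same replicate number were -0.15 to 0.23 over 4 pairs. With so few pairs, they cannot tell whether the numbers pair the libraries. The replicate block gave 3046 called genes (1752 higher, 1294 lower). Of 100 called genes examined one by one, 0 reversed under any of 22 alternatives, and 42 lost their call in the high-rDNA libraries alone. Reversals among the 100 were unlikely from the start, since each was called in the main fit and the alternatives reuse its libraries. Among genes not called, VDR was -0.17 in the high-rDNA libraries alone. JUNB was 0.086 under library size alone, 0.004 with FWatb and ATB alone, 0.011 with the replicate block, and 0.004 to 0.075 without FWatb 1 (0.023), FWatb 8 (0.034), ATB 2 or ATB 3. JUND was 0.055 under library size alone, 0.074 with the block and 0.003 without FWatb 6. ATF4 was 0.043 with the set as a term, 0.144 in the high-rDNA libraries alone and 0.073 under library size alone. In the same order ADM was 0.022, 0.219 and 0.025, and ENO2, for the former pair, -0.013 and -0.327. MKI67 was 0.1 under library size alone, 0.005 with FWatb and ATB alone and 0.078 with the block. Without 1 replicate, ATF4 ranged from -0.059 to 0.035, MKI67 from -0.076 to 0.140, ENO2 from -0.089 to 0.113, JUNB from -0.068 to 0.075 and JUND from -0.087 to 0.003. The cause was not tested. Depth limits genes with low counts, such as FOSB and EGLN3.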
